A study of Mus musculus with 6 samples.

Results

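Chemokines and their receptors were examined in RNA sequencing libraries of whole pancreas from Ela-myc mice. A gene was a member when its symbol followed the chemokine ligand (Ccl, Cxcl, Cx3cl1, Xcl1) or chemokine receptor (Ccr, Cxcr, Cx3cr1, Xcr1, Ccrl2, Ackr) nomenclature, which gave 58 of the 29721 genes in the count table. These were 35 ligands, 18 signalling receptors and 5 atypical receptors. The PARP2 KO group held 3 animals lacking Parp2, the gene of an enzyme that attaches ADP-ribose chains at DNA breaks. The WT group held 3 animals with intact Parp2. All 6 were 3 months old and carried the Ela-myc transgene, in which the elastase promoter drives Myc in acinar cells, so neither group is a normal pancreas. The labels give neither the Parp2 allele nor any pooling of animals. They name the tissue as pancreas while the extraction protocol speaks of tumor samples.

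Chemokines are small secreted proteins that steer leukocytes through G protein-coupled receptors. Homeostatic chemokines such as Ccl19, Ccl21a, Cxcl12 and Cxcl13 are made constantly in lymphoid organs and place lymphocytes and dendritic cells there. Inflammatory chemokines such as Ccl2, Ccl5 and Cxcl10 are induced by cytokines or injury and draw monocytes, neutrophils and effector T cells into tissue. Atypical receptors bind chemokines without classical G protein signalling and many of them remove the ligand. In the pancreas, acinar injury and Myc-driven tumours are known to recruit leukocytes through these systems.

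The libraries held 28105021 to 32055565 counts, and the members took 0.176% to 0.228% of them in PARP2 KO and 0.0787% to 0.108% in WT. Levels are given as CPM, which scale each count to a common library size, here adjusted with trimmed-mean (TMM) factors. Parp2 itself had 12.4 to 14.4 CPM in PARP2 KO and 36.4 to 40.5 CPM in WT. The 24 acinar digestive enzyme genes that define the tissue took 4.25%, 14.3% and 0.0174% of counts in PARP2 KO replicates 1, 2 and 3, against 22.6% to 29.2% in WT, so acinar transcripts were almost absent from PARP2 KO replicate 3. Of these 24 genes 0 passed the test between the groups (edgeR adjusted p under 0.05). Their summed level spanned 143 to 136293 CPM in PARP2 KO. Summed T cell markers lay at 552 to 1384 CPM in PARP2 KO and 84.8 to 225 CPM in WT, and B cell markers at 1607 to 2304 and 187.5 to 473 CPM. All 14 T cell, 11 B cell and 8 cytotoxic markers rose (edgeR adjusted p under 0.05), beside 28.0% of all genes tested. For each of these lists the groups' sums did not overlap. The part of these cell type differences, and of the acinar share, in the values below was not tested, except where a value with a covariate is given. In tissue RNA, more cells of a type and more RNA per cell cannot be told apart.

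Of the 58 members, 50 passed the filter on low counts, 25 rose and 8 fell in PARP2 KO (edgeR quasi-likelihood test, adjusted p under 0.05). Among all 17652 genes tested 53.0% were called, 28.0% higher and 25.0% lower, so 25 of 50 rising stood above the share of all genes and 8 of 50 falling stood below it. The median log2 fold change, PARP2 KO minus WT, was 0.83 over the 50 members and 0.02 over all genes tested. CPM values of the groups did not overlap for 34 tested members: 24 lay higher in PARP2 KO and 10 lower, beside 34.4% and 33.7% of all genes tested. The other 8 members, Ccl1, Ccl20, Cxcl2, Cxcl3, Cxcl11, Cxcl15, Cxcl17 and Cxcr1, had at most 19 counts in any library and at most 0.817 CPM, too few for a test at this depth. Without PARP2 KO replicate 1, 21 members rose and 4 fell.

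The promoters of 44 members were found among RefSeq sequences of the build GRCm38.p6, each running from 250 bases before to 50 bases after the transcription start. They are shown for the interferon-linked pair Cxcl9 and Cxcl10, which rose, for Cxcl1, whose difference did not pass the test, and for Ccl8, which had the largest fall. Capitals mark matches on either strand to a kappaB-like motif (GGG, any 3 bases, TTCC), an interferon-stimulated response element-like motif (GAAA, any 2 bases, GAAA) or a gamma-activated site-like motif (TTCNNNGAA).
Cxcl10 promoter, chr5:92348840-92349139, minus strand: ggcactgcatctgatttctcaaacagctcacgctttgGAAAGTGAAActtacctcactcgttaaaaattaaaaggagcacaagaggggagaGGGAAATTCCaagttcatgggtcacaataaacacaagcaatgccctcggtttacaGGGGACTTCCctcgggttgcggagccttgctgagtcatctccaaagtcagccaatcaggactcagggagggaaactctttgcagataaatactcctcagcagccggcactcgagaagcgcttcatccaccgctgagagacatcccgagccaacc
Cxcl9 promoter, chr5:92328030-92328329, minus strand: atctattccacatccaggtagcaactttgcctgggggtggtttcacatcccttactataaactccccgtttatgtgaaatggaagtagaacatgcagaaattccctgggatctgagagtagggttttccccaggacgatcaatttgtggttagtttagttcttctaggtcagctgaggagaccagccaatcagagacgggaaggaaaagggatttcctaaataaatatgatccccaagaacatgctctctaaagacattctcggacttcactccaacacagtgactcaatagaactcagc
Cxcl1 promoter, chr5:90890995-90891294, plus strand: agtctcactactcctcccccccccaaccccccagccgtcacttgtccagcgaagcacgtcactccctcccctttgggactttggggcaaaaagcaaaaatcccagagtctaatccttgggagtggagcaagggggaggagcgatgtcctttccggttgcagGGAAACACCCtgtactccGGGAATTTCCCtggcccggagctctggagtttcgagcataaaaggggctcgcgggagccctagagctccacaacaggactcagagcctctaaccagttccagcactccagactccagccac
Ccl8 promoter, chr11:82114935-82115234, plus strand: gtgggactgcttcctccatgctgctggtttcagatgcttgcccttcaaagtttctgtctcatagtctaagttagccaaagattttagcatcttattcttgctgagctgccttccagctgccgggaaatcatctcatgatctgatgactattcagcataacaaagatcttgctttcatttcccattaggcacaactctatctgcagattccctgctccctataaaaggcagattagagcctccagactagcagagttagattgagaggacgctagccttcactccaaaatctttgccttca
The window of Cxcl10 held an interferon element-like match beginning 213 bases before the start and kappaB-like matches beginning 159 and 104 bases before it. That of Cxcl1 held kappaB-like matches at 89, 71 and 70 bases before the start, the last 2 overlapping each other. The windows of Cxcl9 and Ccl8 held no match to these letters. Among all 32851 promoters of this length, 5.56% held the kappaB-like, 3.44% the interferon element-like and 8.3% the gamma-activated site-like motif. Of the members' 50 promoter windows, 9, 3 and 3 held them. Among risen members with a promoter, 2 of 20 held each motif. A match describes letters and is not a bound site.

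The 5 receptors of homeostatic chemokines all rose in PARP2 KO, beside 28.0% of all genes tested, at a median of 2.78 for the log2 fold change. Their summed level was 269.3 to 380.5 CPM in PARP2 KO and 25.9 to 63.8 CPM in WT. Ccr7, which brings T cells and mature dendritic cells to lymph node T zones, had 163, 75.3 and 154.9 CPM in the PARP2 KO libraries and 21.2, 5.59 and 21.8 CPM in the WT libraries. Every PARP2 KO library exceeded every WT library, and within each group replicate 2 was lowest. The means were 131 ± 48.5 and 16.2 ± 9.21 CPM (SD, n = 3 each), an 8.07-fold difference (log2 fold change 3.01 with an SE of 0.602, adjusted p = 0.00997 by edgeR).

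Cxcr5, which guides B cells and follicular helper T cells into follicles, had 63.9, 70.5 and 90.8 CPM in PARP2 KO and 17.7, 6.83 and 8.20 CPM in WT (log2 fold change 2.78 with an SE of 0.401, adjusted p = 0.00384 by edgeR). The groups were far apart, and WT replicate 1 stood above the other WT libraries. Cxcr4, the receptor for Cxcl12, had 121, 109 and 51.9 CPM in PARP2 KO and 20.2, 12.4 and 20.3 CPM in WT (log2 fold change 2.41 with an SE of 0.378, adjusted p = 0.00474 by edgeR). Here PARP2 KO replicate 3 was the lowest of its group yet still above all WT libraries. The exons of Cxcr5 overlap Bcl9l on the opposite strand, and the strand setting of the counting is not given in the sources used here. The same limit applies to Ackr4, Ccl25, Ccl27a, Ccr9, Cx3cr1, Cxcl10, Cxcl16 and Xcl1, whose exons also overlap genes on the opposite strand.

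Ccr9, the receptor for Ccl25 on thymocytes and gut-homing lymphocytes, had the largest log2 fold change of any member, 3.19 (SE 0.751, edgeR adjusted p = 0.0163). Its values were 31.4, 13.5 and 42.7 CPM in PARP2 KO and 4.42, 0.731 and 4.37 CPM in WT, without overlap. Its exons overlap other annotated genes on both strands. Ccr10, which serves skin-homing T cells and IgA plasma cells, stayed low at 1.11, 0.694 and 2.24 CPM in PARP2 KO and 0.235, 0.344 and 0.0689 CPM in WT (log2 fold change 2.66 with an SE of 0.667, adjusted p = 0.0173 by edgeR). That call ended without WT replicate 1 (edgeR adjusted p = 0.0529) and with the acinar level as a covariate (edgeR adjusted p = 0.0821).

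**Figure D1:**
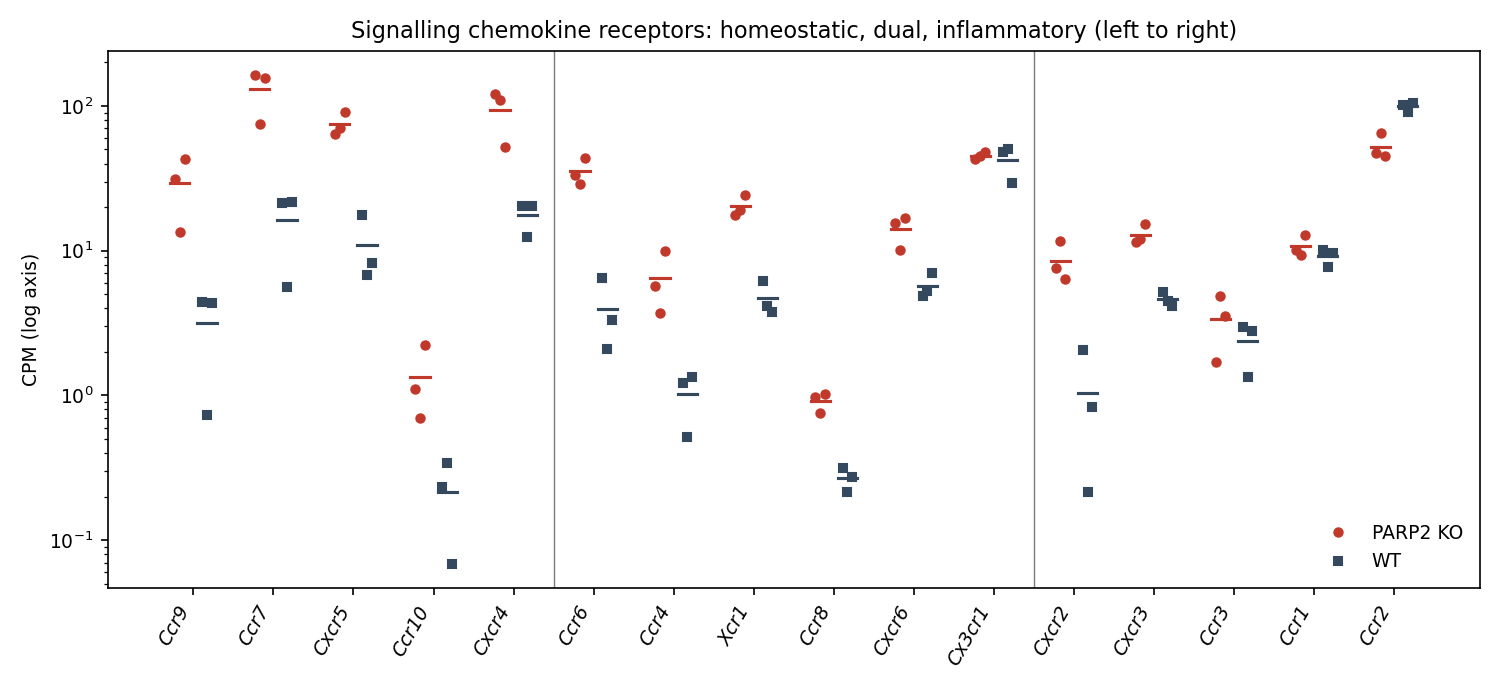
CPM on a log axis of 16 tested signalling receptors in each library, PARP2 KO (red circles) left of WT (dark squares), with bars for group means. Grey lines separate homeostatic, dual and inflammatory receptors, and all 5 homeostatic receptors are higher in PARP2 KO while Ccr2 is lower.

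Receptors whose ligands have both roles mostly rose as well, 5 of 6 (83.3%, beside 28.0% of all genes tested), with a median log2 fold change of 1.94. Ccr6, found on B cells and interleukin-17-producing T cells, had 33.5, 29.1 and 43.3 CPM in PARP2 KO and 6.50, 2.11 and 3.34 CPM in WT (log2 fold change 3.15 with an SE of 0.432, adjusted p = 0.00348 by edgeR). Its lowest PARP2 KO library was well above the highest WT library. Xcr1, the receptor of cross-presenting dendritic cells, had 17.6, 19.2 and 24.1 CPM in PARP2 KO and 6.22, 4.13 and 3.75 CPM in WT, a 4.31-fold difference (edgeR adjusted p = 0.00229). Ccr4 and Ccr8, both used by regulatory and type 2 helper T cells, had log2 differences of 2.64 and 1.76 (SE 0.51 and 0.299; both rose), although Ccr8 stayed at 0.757 to 1.03 CPM in PARP2 KO and 0.215 to 0.313 CPM in WT. Cxcr6, a receptor of tissue-resident T cells, averaged 14.2 ± 3.53 CPM in PARP2 KO and 5.72 ± 1.12 CPM in WT (SD, n = 3 each; edgeR adjusted p = 0.00688). Cx3cr1, which marks patrolling monocytes and many resident macrophages, had 42.9, 45.2 and 47.8 CPM in PARP2 KO and 47.8, 50.5 and 29.3 CPM in WT. Those groups overlapped (log2 fold change 0.09, edgeR adjusted p = 0.729).

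Receptors of inflammatory chemokines were divided. Of 6 tested, 2 rose and 2 fell (33.3% each, beside 28.0% and 25.0% of all genes tested), and 2 did not pass. Their summed level was lower in PARP2 KO, 106.9 to 132.4 CPM against 151.6 to 171.6 CPM in WT, without overlap. Ccr2, through which bone marrow monocytes enter inflamed tissue, fell to 47.4, 64.6 and 45.0 CPM in PARP2 KO, against 102, 90.7 and 104 CPM in WT (log2 fold change -0.92 with an SE of 0.155, adjusted p = 0.00501 by edgeR). All PARP2 KO libraries lay below all WT libraries, and replicate 2 was nearest to the other group on both sides.

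Cxcr3, the receptor of type 1 helper and cytotoxic T cells, had 11.5, 12.1 and 15.2 CPM in PARP2 KO and 5.20, 4.47 and 4.13 CPM in WT (log2 fold change 1.49 with an SE of 0.177, adjusted p = 0.00243 by edgeR). Cxcr2, the main chemokine receptor of neutrophils, had 7.60, 11.6 and 6.399 CPM in PARP2 KO and 2.07, 0.215 and 0.827 CPM in WT (log2 fold change 3.03 with an SE of 0.728, adjusted p = 0.0163 by edgeR). Both receptors were separate between the groups. The Cxcr2 call ended without WT replicate 3 (edgeR adjusted p = 0.0594), and the log2 fold change was 3.99 without WT replicate 1. Summed neutrophil markers overlapped between the groups, at 19.99 to 48.5 CPM in PARP2 KO and 12.6 to 22.8 CPM in WT. Of 8 of these markers tested, 2 rose, and Ly6g was at or near 0 throughout. Ccr1 averaged 10.8 ± 1.81 and 9.19 ± 1.32 CPM and the eosinophil receptor gene Ccr3 3.35 ± 1.57 and 2.37 ± 0.899 CPM in PARP2 KO and WT (SD, n = 3 each), neither past the threshold.

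Ligands moved less uniformly than receptors by their counts: of 28 tested, 10 rose (35.7%), 6 fell (21.4%) and 12 did not pass. Of the 17 signalling receptors tested, 70.6% rose and 11.8% fell. Among all genes tested 28.0% rose and 25.0% fell, so the ligand shares lay near those of all genes. The median log2 fold change was 0.18 over the ligands and 2.11 over the 17 signalling receptors. These medians are descriptions of the classes, with no test between them. Without PARP2 KO replicate 1, 7 ligands rose and 2 fell.

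**Figure D2:**
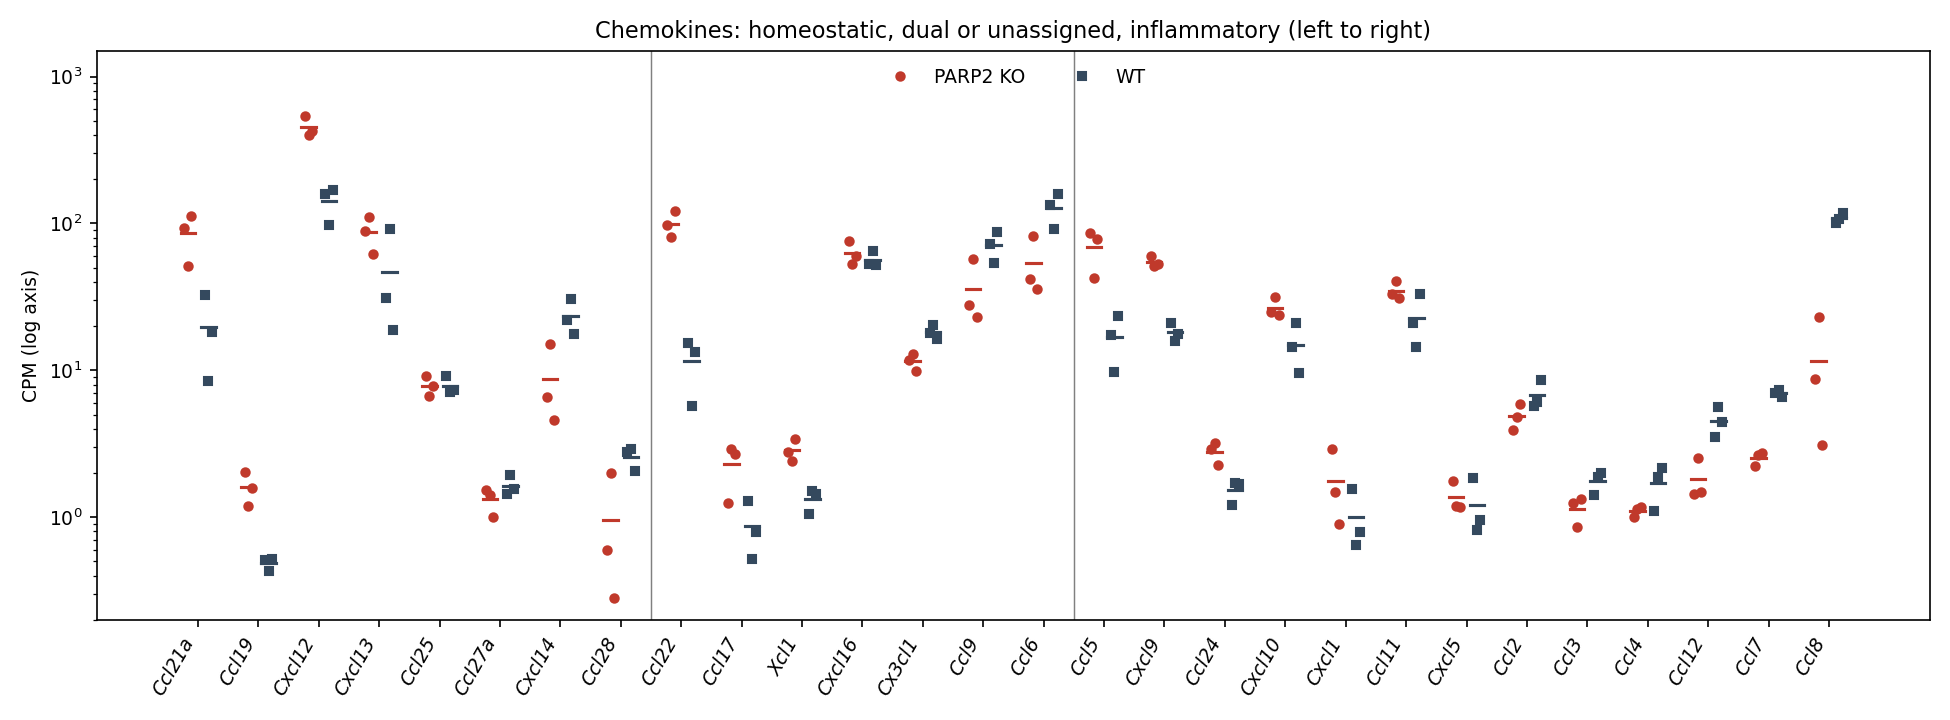
CPM on a log axis of the 28 tested chemokine ligands in each library, PARP2 KO (red circles) left of WT (dark squares), with bars for group means. Ligands run from the highest to the lowest log2 fold change within the homeostatic, the dual or unassigned and the inflammatory class, and Ccl8 at the far right is the gene with the widest gap below WT.

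Among 8 homeostatic ligands 3 rose and 1 fell (37.5% and 12.5%, beside 28.0% and 25.0% of all genes tested). Their summed level was 588 to 738 CPM in PARP2 KO and 235 to 259 CPM in WT. Cxcl12, made by stromal and endothelial cells and the retention signal of the bone marrow, had 537, 399.6 and 424.5 CPM in PARP2 KO and 159, 97.4 and 169 CPM in WT. Every PARP2 KO library exceeded every WT library, and the groups' means were 453.7 ± 73.1 and 142 ± 38.8 CPM (SD, n = 3 each; log2 fold change 1.68 with an SE of 0.24, adjusted p = 0.00348 by edgeR). Summed blood endothelial markers were 955.8 to 1070.3 CPM in PARP2 KO and 412 to 457 CPM in WT, and 8 of 9 rose. Fibroblast markers summed to 3584 to 4915 CPM in PARP2 KO and 5265 to 5813 CPM in WT, where 1 of 10 rose and 3 fell.

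The Ccr7 ligands both rose. Ccl21a, displayed by high endothelial venules, lymphatics and T-zone stroma, had 92.5, 51.0 and 113 CPM in PARP2 KO and 32.5, 8.42 and 18.3 CPM in WT (log2 fold change 2.12 with an SE of 0.551, adjusted p = 0.0225 by edgeR). Its order within PARP2 KO was the same as that of summed T cell markers, 1113, 552 and 1384 CPM. The Ccl21a call ended without PARP2 KO replicate 1 or WT replicate 3 (edgeR adjusted p up to 0.0781), without a count filter (edgeR adjusted p = 0.0609) and with the acinar level as a covariate (edgeR adjusted p = 0.0818). Ccl19 had 2.03, 1.20 and 1.59 CPM in PARP2 KO and 0.509, 0.43 and 0.517 CPM in WT (log2 fold change 1.72 with an SE of 0.298, adjusted p = 0.00548 by edgeR). Both genes have near-identical copies on chromosome 4: 71.6% of the 50-base words of Ccl21a transcripts and 52.0% of those of Ccl19 also occur in transcripts of other annotated genes, so their counts are uncertain.

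Cxcl13, the ligand of Cxcr5 and organiser of B cell follicles, did not pass the test. It had 88.4, 110.7 and 62.0 CPM in PARP2 KO and 31.0, 91.3 and 18.8 CPM in WT (log2 fold change 0.89 with an SE of 0.608, adjusted p = 0.254 by edgeR). WT replicate 2 lay within the PARP2 KO range, and it was the WT library with the lowest summed B cell markers, 187.5 CPM. Without that library the log2 fold change was 1.80 (edgeR adjusted p = 0.0187). Ccl25, the Ccr9 ligand of thymus and small intestine, averaged 7.87 ± 1.18 CPM in PARP2 KO and 7.89 ± 1.08 CPM in WT (SD, n = 3 each). The log2 fold change was -0.0022 (SE 0.182), and its sign depended on the setting.

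The remaining homeostatic ligands are epithelial products. Cxcl14, made by epithelium and stroma, fell to 6.57, 15.1 and 4.57 CPM in PARP2 KO, against 22.0, 30.4 and 17.7 CPM in WT (log2 fold change -1.42 with an SE of 0.478, adjusted p = 0.0478 by edgeR). The groups were separate, but the call ended without any library other than PARP2 KO replicate 2 (edgeR adjusted p up to 0.148), and without that library the log2 fold change was -2.07. It also ended with library totals, without a count filter, with sex as a term and with the acinar covariate (edgeR adjusted p = 0.06, 0.106, 0.111 and 0.16), the last with a log2 fold change of -0.77. Ccl28, a mucosal ligand of Ccr10, had 0.595, 1.99 and 0.283 CPM in PARP2 KO and 2.78, 2.92 and 2.07 CPM in WT (edgeR adjusted p = 0.115). In Cxcl14 and Ccl28 alike the 3 PARP2 KO libraries stood in the order of their digestive enzyme shares, 14.3% in replicate 2, 4.25% in replicate 1 and 0.0174% in replicate 3. Ccl27a, the other Ccr10 ligand, averaged 1.32 ± 0.283 CPM in PARP2 KO and 1.64 ± 0.256 CPM in WT (SD, n = 3 each; edgeR adjusted p = 0.351), and 45.0% of its 50-base words are shared with copies.

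Among the 13 inflammatory ligands tested 4 rose and 3 fell (30.8% and 23.1%), near the 28.0% and 25.0% of all genes tested. Their summed level overlapped between the groups, at 206.5 to 230.2 CPM in PARP2 KO and 194.5 to 229.7 CPM in WT. Of these ligands 2 rose without PARP2 KO replicate 1, PARP2 KO replicate 2 or WT replicate 1, and 1 fell without PARP2 KO replicate 1. The make-up of these ligands differed on another scale, CPM per kilobase of exon, on which the totals of the groups were not compared. Per kilobase of exon, Ccl8 gave 9.25%, 25.5% and 3.71% of inflammatory ligand CPM in PARP2 KO replicates 1 to 3, against 70.4% to 74.7% in WT. Ccl5, Cxcl9 and Cxcl10 together gave 65.0%, 42.6% and 67.7% in PARP2 KO, against 8.86% to 11.5% in WT.

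Ccl8, a monocyte chemoattractant that in mice is also a ligand of Ccr8, had 8.73, 23.0 and 3.08 CPM in PARP2 KO and 100.5, 106 and 118 CPM in WT. The WT libraries were close to each other, whereas the PARP2 KO libraries were spread and again followed the order of digestive enzyme share. The WT libraries did not follow that order: WT replicate 3 had the lowest share, 22.6%, and the highest Ccl8 level. The log2 fold change was -3.23 (SE 0.716, edgeR adjusted p = 0.0137), and -4.21 without PARP2 KO replicate 2. The call ended without PARP2 KO replicate 1 (edgeR adjusted p = 0.0555) and without a count filter (edgeR adjusted p = 0.0514). Summed macrophage markers were 2680 to 3158 CPM in PARP2 KO and 2414 to 2678 CPM in WT. Lyz2 had the highest level among them, at means of 1351 and 1112 CPM. The markers were divided: Csf1r and Mertk rose (log2 fold change 1.065 and 0.85), and Fcgr1 and Cd68 fell (-1.15 and -0.52).

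Among the other monocyte chemoattractant proteins that bind Ccr2, Ccl7 and Ccl12 fell and Ccl2 did not pass the test. Ccl7 fell to 2.24, 2.65 and 2.72 CPM in PARP2 KO, against 6.97, 7.35 and 6.61 CPM in WT (log2 fold change -1.46 with an SE of 0.175, adjusted p = 0.00251 by edgeR), with little spread in either group. Ccl12, a monocyte attractant known in mice, fell to 1.43, 2.52 and 1.49 CPM in PARP2 KO, against 3.52, 5.59 and 4.48 CPM in WT (log2 fold change -1.32 with an SE of 0.318, adjusted p = 0.0154 by edgeR). That call ended without PARP2 KO replicate 1 or WT replicate 2 (edgeR adjusted p up to 0.0666) and with the acinar covariate (edgeR adjusted p = 0.0895). Ccl2 itself, the best known monocyte attractant, averaged 4.89 ± 0.998 CPM in PARP2 KO and 6.78 ± 1.57 CPM in WT (SD, n = 3 each; edgeR adjusted p = 0.147), with overlapping groups.

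Ligands of Cxcr3, which interferon-gamma induces, rose. Cxcl9 had 59.8, 51.5 and 52.8 CPM in PARP2 KO and 21.1, 15.9 and 17.6 CPM in WT (log2 fold change 1.59 with an SE of 0.132, adjusted p = 0.00201 by edgeR). Its neighbour Cxcl10 had 24.8, 31.5 and 23.7 CPM in PARP2 KO and 14.3, 20.8 and 9.61 CPM in WT (log2 fold change 0.84 with an SE of 0.288, adjusted p = 0.0492 by edgeR). Both were separate between the groups, Cxcl10 narrowly. The Cxcl10 call ended when any library other than WT replicate 2 was left out (edgeR adjusted p up to 0.126) and with DESeq2 size factors in place of TMM (edgeR adjusted p = 0.0548). It ended too without the digestive enzyme genes in the TMM factors, without a count filter, with sex as a term and with the acinar covariate (edgeR adjusted p = 0.0566, 0.0614, 0.0557 and 0.0667).

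Ccl5, released by activated T and natural killer cells, had 85.7, 42.6 and 78.7 CPM in PARP2 KO and 17.4, 9.80 and 23.4 CPM in WT (log2 fold change 2.03 with an SE of 0.403, adjusted p = 0.00922 by edgeR). Replicate 2 was the lowest of each group, as it was for summed T cell markers, 552 CPM in PARP2 KO and 84.8 CPM in WT. The eosinophil attractant Ccl24 had 2.26 to 3.22 CPM in PARP2 KO and 1.21 to 1.72 CPM in WT (edgeR adjusted p = 0.0326), a call that ended when any library other than PARP2 KO replicate 3 was left out (edgeR adjusted p up to 0.0982), without a count filter and with sex as a term (edgeR adjusted p = 0.0528 and 0.0723). The related gene Ccl11 averaged 34.8 ± 4.996 CPM in PARP2 KO and 22.7 ± 9.40 CPM in WT (SD, n = 3 each; edgeR adjusted p = 0.133). Neutrophil-attracting Cxcl1 and Cxcl5 averaged 1.77 ± 1.04 and 1.38 ± 0.327 CPM in PARP2 KO and 1.001 ± 0.494 and 1.21 ± 0.553 CPM in WT, with overlapping groups. The macrophage inflammatory protein genes Ccl3 and Ccl4 had log2 fold changes of -0.62 and -0.64 (edgeR adjusted p = 0.106 and 0.129).

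Of 7 ligands with both or no settled role 3 rose and 2 fell (42.9% and 28.6%, beside 28.0% and 25.0% of all genes tested). Ccl22, made by dendritic cells and attracting regulatory T cells through Ccr4, had 97.2, 81.5 and 120.9 CPM in PARP2 KO and 15.4, 5.76 and 13.3 CPM in WT. Its 8.68-fold rise was the largest rise of any ligand (log2 fold change 3.12 with an SE of 0.393, adjusted p = 0.00303 by edgeR). Summed dendritic cell markers were 546 to 705 CPM in PARP2 KO and 130.7 to 200.6 CPM in WT, and 8 of 9 rose. The other Ccr4 ligand, Ccl17, had 1.24, 2.93 and 2.70 CPM in PARP2 KO and 1.29, 0.516 and 0.792 CPM in WT (log2 fold change 1.39 with an SE of 0.471, adjusted p = 0.0459 by edgeR). The groups overlapped, and the call ended without PARP2 KO replicates 2 or 3 or WT replicates 2 or 3 (edgeR adjusted p up to 0.122). It also ended by limma-voom (adjusted p = 0.056), and in edgeR with sex as a term or the acinar covariate (adjusted p = 0.14 and 0.137). Xcl1, the Xcr1 ligand made by natural killer and CD8 T cells, averaged 2.88 ± 0.501 CPM in PARP2 KO and 1.34 ± 0.244 CPM in WT (SD, n = 3 each; edgeR adjusted p = 0.0139, or 0.0865 with the acinar level as a covariate).

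Ccl6, a myeloid chemokine known in rodents, fell to 42.2, 82.7 and 35.7 CPM in PARP2 KO, against 134, 91.4 and 158 CPM in WT (log2 fold change -1.26 with an SE of 0.374, adjusted p = 0.0329 by edgeR). PARP2 KO replicate 2 lay close under WT replicate 2, and the call ended without either of the other libraries of each group (edgeR adjusted p up to 0.111). Scaling by library totals ended it as well, as did fits without a count filter and with the acinar covariate (edgeR adjusted p = 0.0644, 0.0854 and 0.124), the last with a log2 fold change of -0.82. Its neighbour Ccl9 had 27.9, 56.9 and 23.2 CPM in PARP2 KO and 72.6, 54.1 and 87.9 CPM in WT, with overlap (edgeR adjusted p = 0.0693). Cx3cl1, the membrane-anchored ligand of Cx3cr1, fell to 11.7, 13 and 9.84 CPM in PARP2 KO, against 17.9, 20.2 and 16.3 CPM in WT (log2 fold change -0.66 with an SE of 0.148, adjusted p = 0.0122 by edgeR). This call ended without PARP2 KO replicate 1 (edgeR adjusted p = 0.0505) and under scaling by library totals alone (edgeR adjusted p = 0.142; log2 fold change -0.26). With the acinar covariate the adjusted p was 0.0766 by edgeR. Scaling by totals moved the median log2 fold change of all genes to 0.42. Cxcl16, the Cxcr6 ligand, averaged 63.3 ± 12.02 CPM in PARP2 KO and 56.6 ± 7.03 CPM in WT (SD, n = 3 each; edgeR adjusted p = 0.416).

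Of the atypical receptors 3 of 5 rose (60%) and 0 fell, beside 28.0% and 25.0% of all genes tested. Ackr4, which removes Ccl19, Ccl21 and Ccl25, had 23.4, 20.9 and 19.9 CPM in PARP2 KO and 6.97, 3.01 and 8.47 CPM in WT (log2 fold change 1.80 with an SE of 0.365, adjusted p = 0.0094 by edgeR). Ackr2, a lymphatic scavenger of inflammatory CC chemokines, had 9.98, 9.31 and 11.1 CPM in PARP2 KO and 3.48, 2.06 and 3.93 CPM in WT (log2 fold change 1.68 with an SE of 0.265, adjusted p = 0.00431 by edgeR). In both genes the groups were well separated. Ackr3, which takes up Cxcl12, had 37.2, 39.2 and 35.0 CPM in PARP2 KO and 19.6, 14.7 and 30.5 CPM in WT (edgeR adjusted p = 0.0458), a call that ended without any library other than WT replicate 3 (edgeR adjusted p up to 0.128). It also ended without the digestive enzyme genes in the TMM factors, without a count filter, with sex as a term and with the acinar covariate (edgeR adjusted p = 0.0502, 0.066, 0.0579 and 0.0978). Ackr1, the Duffy antigen gene of venules, and Ccrl2, which presents the attractant chemerin, had overlapping groups (edgeR adjusted p = 0.21 and 0.449). Part of Ackr1 is shared with Cadm3 transcripts on the same strand. Summed lymphatic endothelial markers were 425 to 541 CPM in PARP2 KO and 159 to 229 CPM in WT, with 2 of 6 higher and 1 lower.

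Ligands were then set beside their receptors in 25 textbook pairs, of which 22 had both genes tested. Several pairs share a ligand or receptor, so they are not independent. Both partners rose in 8 pairs, which were Ccl19/Ccr7, Ccl21a/Ccr7, Cxcl12/Cxcr4, Ccl17/Ccr4, Ccl22/Ccr4, Cxcl9/Cxcr3, Cxcl10/Cxcr3 and Xcl1/Xcr1. Both fell in 2 pairs, Ccl7/Ccr2 and Ccl12/Ccr2. The partners were called in opposite directions in 1 pair, where Ccl8 fell while Ccr8 rose. In 7 pairs the receptor rose and the ligand did not pass, among them Cxcl13/Cxcr5 and Ccl25/Ccr9. The receptor's log2 fold change was above that of its ligand in 17 of the 22 pairs, a description with no test.

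**Figure D3:**
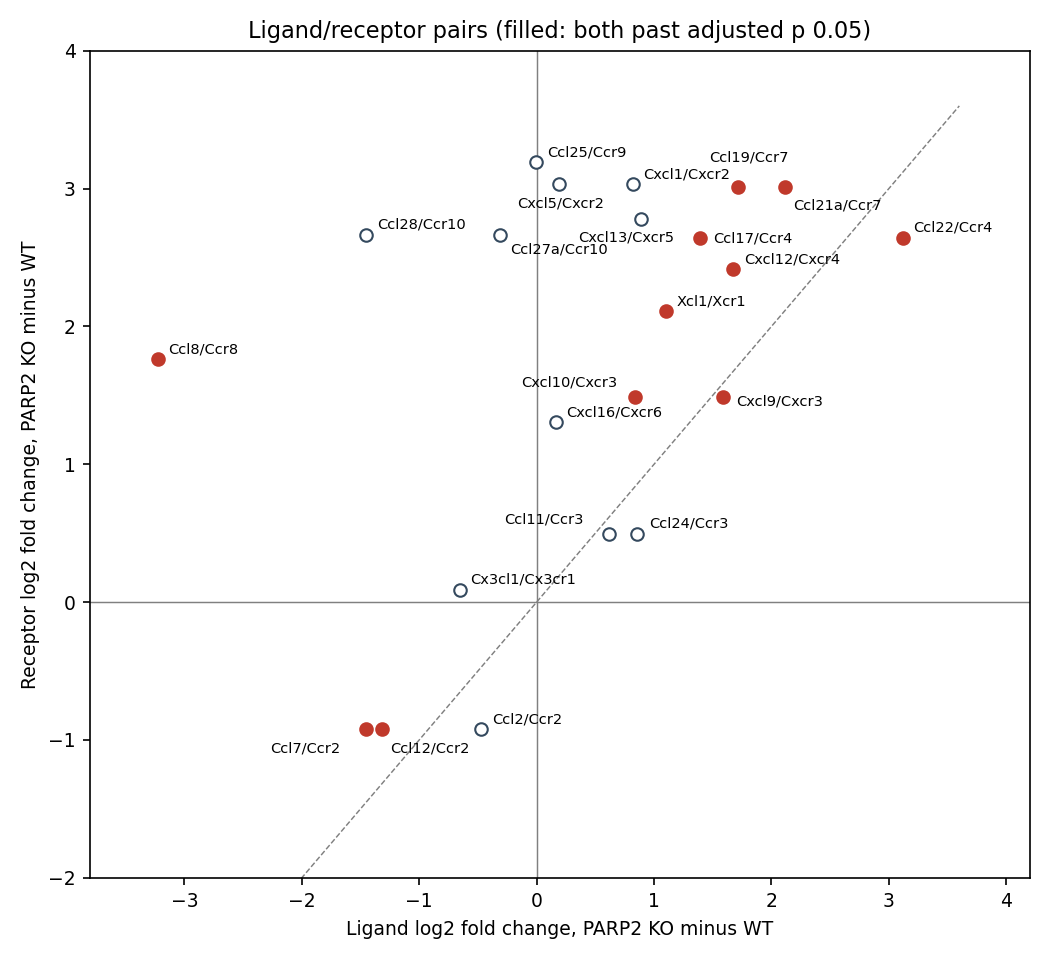
Log2 fold change (PARP2 KO minus WT) of the ligand on the horizontal axis and of its receptor on the vertical axis for the 22 pairs with both genes tested. Filled points have both genes past the threshold, the dashed line marks equal change, and 17 points lie above it, with Ccl8/Ccr8 at the upper left.

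Levels of different genes were compared per kilobase of exon, where the union of all annotated exons understates genes with long alternative exons such as Cxcl12. In PARP2 KO the most abundant receptors were Ccr7, Cxcr4, Cxcr5 and Ccr6, with mean levels of 66.3, 52.1, 22.5 and 15.2 CPM per kilobase. In WT they were Ccr2, Cxcr4, Cx3cr1 and Ccr7, with 14.7, 9.76, 9.45 and 8.20 CPM per kilobase. The most abundant ligands in PARP2 KO were Ccl21a, Cxcl13, Ccl5 and Cxcl12, with 98.4, 75.7, 71.9 and 55.5 CPM per kilobase. In WT they were Ccl8, Ccl6, Cxcl13 and Ccl9, with 212, 71.3, 40.9 and 23.5 CPM per kilobase. Thus Ccl8 led the ligands in WT and was at 22.7 CPM per kilobase in PARP2 KO.

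Members that lie side by side in the genome did not all move together (positions in GRCm38). On chromosome 11 the block from Ccl2 (82035571 to 82037453) through Ccl7, Ccl11 and Ccl12 to Ccl8 (82115185 to 82116799) had log2 fold changes of -0.47, -1.46, 0.61, -1.32 and -3.23. The difference of Ccl11, in the middle of that block, had the opposite sign and did not pass the test. In a second block of chromosome 11, Ccl5 (83525778 to 83530518) rose beside Ccl9 and the falling Ccl6 (83587882 to 83593087). On chromosome 8 the rising Ccl22 (94745590 to 94751699) and Ccl17 (94810453 to 94812036) flank Cx3cl1 (94772009 to 94782427), which fell. On chromosome 9 Ccr9, Cxcr6 and Xcr1, between 123678439 and 123862029, rose, Ccr1 and Ccr3 did not pass, and Ccr2, between 124101950 and 124113557, fell.

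Within groups, receptor levels were laid beside summed marker levels of the cells that carry them. Cxcr5 was highest in PARP2 KO replicate 3 and in WT replicate 1, as were the B cell markers, at 2304 and 473 CPM. Ccr7 was lowest in replicate 2 of each group, as were T cell markers, but the highest library differed in both groups. Xcr1 did not keep the order of the dendritic cell markers among the libraries of a group. In PARP2 KO replicates 1, 2 and 3 it had 17.6, 19.2 and 24.1 CPM, beside marker sums of 705, 546 and 693 CPM. In WT both were highest in replicate 1, but Xcr1 was lowest in replicate 3 and the markers in replicate 2. By median log2 fold change the B cell markers stood at 2.80 and the T cell markers at 2.78, beside 2.78 for Cxcr5 and 3.01 for Ccr7. The dendritic cell markers had a median of 2.11, beside 2.11 for Xcr1. Ccl8 had the same order as summed macrophage markers within PARP2 KO, where the markers were at 2944, 3158 and 2680 CPM in replicates 1, 2 and 3. WT replicate 3 was highest for both within WT, but WT replicates 1 and 2 stood in opposite order. Ccl8 had 100.5 and 106 CPM there and the markers 2535 and 2414 CPM. Between the groups the macrophage markers had a median log2 fold change of -0.10, with 2 of 12 higher and 2 lower.

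**Figure D4:**
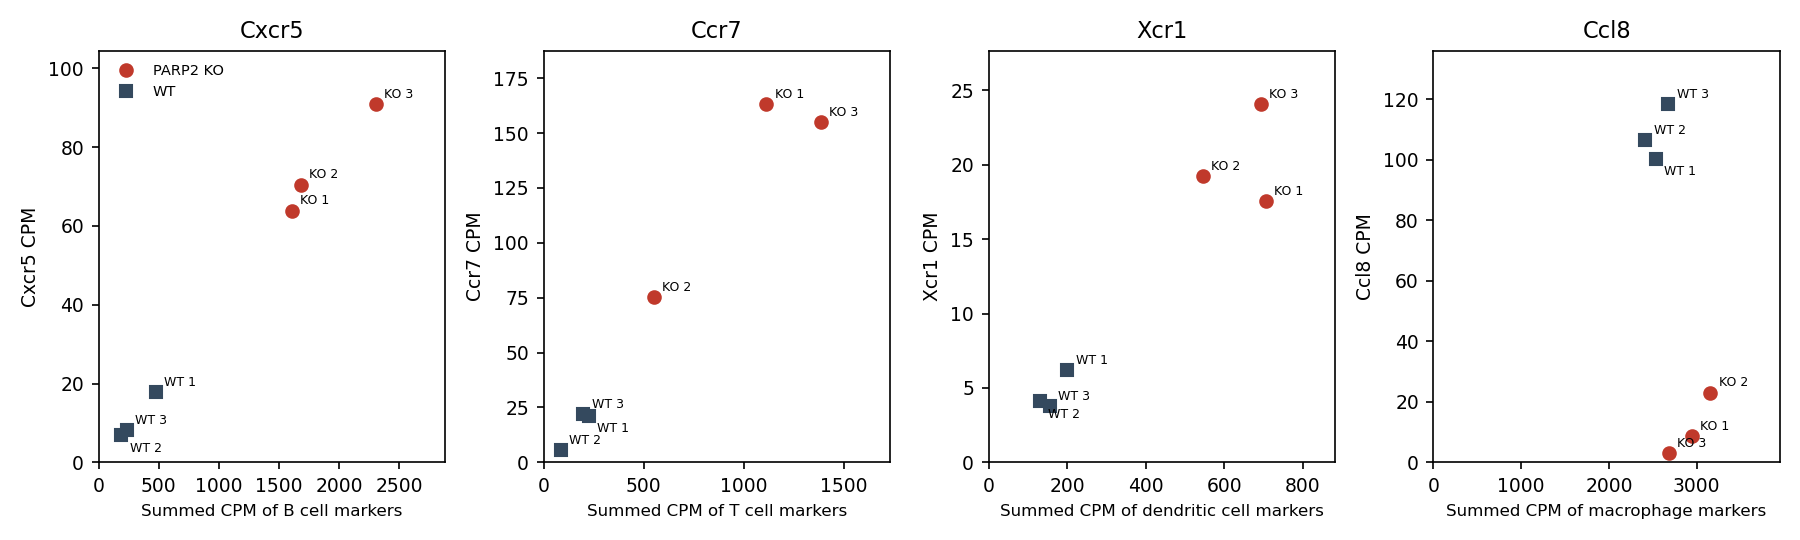
CPM of Cxcr5, Ccr7, Xcr1 and Ccl8 in each library against the summed CPM of B cell, T cell, dendritic cell and macrophage markers, PARP2 KO as red circles and WT as dark squares. Receptors and marker sums are both higher in PARP2 KO, whereas Ccl8 is 3.08 to 23.0 CPM in PARP2 KO and 100.5 to 118 CPM in WT where macrophage marker sums are 2680 to 3158 CPM in PARP2 KO and 2414 to 2678 CPM in WT.

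Among the other lists, 10 of 10 fat cell markers rose, summing to 11001 to 14788 CPM in PARP2 KO and 1075 to 2065 CPM in WT. Lymph node stroma and high endothelial venule markers, 5 of 9 higher and 1 lower, summed to 717.5 to 1260 CPM in PARP2 KO and 224 to 288 CPM in WT. Enpp2 and Glycam1 had the highest PARP2 KO means of that list. Enpp2 averaged 397 CPM in PARP2 KO and 102 CPM in WT, and rose. Glycam1 had 96.6, 365 and 759 CPM in PARP2 KO and 12.5, 0.645 and 113 CPM in WT, with overlap (edgeR adjusted p = 0.148). Cytotoxic cell markers summed to 64.4 to 91.2 CPM in PARP2 KO and 18.3 to 22.7 CPM in WT. Erythroid markers, 2 of 6 tested higher, summed to 156 to 460 CPM in PARP2 KO and 60.8 to 141 CPM in WT. Platelet markers, 1 of 4 tested higher, summed to 39.0 to 54.2 CPM in PARP2 KO and 16.9 to 18.6 CPM in WT, with Gp9 near 0. Itga2b carried that difference, at 34.9 ± 3.85 CPM in PARP2 KO and 4.10 ± 3.62 CPM in WT, while Pf4 averaged 9.58 and 12.7 CPM and Gp5 0.206 and 0.518 CPM in PARP2 KO and WT. Among all genes tested 28.0% rose and 25.0% fell. The part of these lists in the chemokine values was not tested.

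Genes that act downstream of the receptors were mostly higher. Of 56 chemokine receptor signalling genes 40 rose (71.4%) and 5 fell (8.93%), with a median log2 fold change of 1.14. Among all genes tested 28.0% rose and 25.0% fell, with a median of 0.02. Pik3cg, the catalytic subunit of the PI3 kinase that G proteins activate, had 71.5, 62.4 and 77.0 CPM in PARP2 KO and 22.6, 15.5 and 20.9 CPM in WT (log2 fold change 1.84 with an SE of 0.167, adjusted p = 0.00201 by edgeR). The kinase genes Lyn and Ptk2b rose, with log2 differences of 1.30 and 1.72 (SE 0.119 and 0.159). All 3 are largely leukocyte genes, and the part of leukocyte numbers in their values was not tested. Those that fell were Tiam1, an activator of Rac, the adaptor Bcar1, Plcb3, Gnai3 and, named after its values were seen, Src. Their log2 fold changes were -0.92, -1.08, -0.37, -0.35 and -0.43.

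Among 20 genes of pathways that induce chemokines 13 rose (65%, beside 28.0% of all genes tested) and 7 did not pass. Their median log2 fold change was 0.96. Irf1, a transcription factor of interferon responses, had 175, 132.7 and 158 CPM in PARP2 KO and 57.3, 56.3 and 60.6 CPM in WT (log2 fold change 1.42 with an SE of 0.117, adjusted p = 0.00201 by edgeR). Relb, the noncanonical NF-kappaB subunit needed for lymphoid chemokines, had 87.6, 66.0 and 83.2 CPM in PARP2 KO and 31.1, 31.5 and 28.0 CPM in WT (log2 fold change 1.39 with an SE of 0.128, adjusted p = 0.00201 by edgeR). The interferon-gamma receptor gene Ifngr1 and the NF-kappaB inhibitor gene Nfkbia rose by 0.95 and 1.11 on the log2 scale. The groups of all 4 genes were separate.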

How the data were processed

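RNA sequencing of pancreas from 3 PARP2 KO and 3 WT Ela-myc mice was used. The authors deposited whole-number read counts per gene and a table of log2 values. Libraries were made from total RNA with a stranded mRNA kit, per the labels. The build was GRCm38 (mm10), and the tools listed, without roles, were STAR 2.5.3a, FastQC 0.11.5 and DESeq2 1.28.1, per the submitters' processing notes. Counting program, strand setting and annotation release: not given in the sources used here. The deposited log2 values equalled log2 of the counts over DESeq2 size factors plus 1, to within 5.2e-14.

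The counts were tested for all genes passing edgeR's group-wise filter (17652 of 29721) by edgeR 4.0.16 under R 4.3.3 (quasi-likelihood F-test), using robust dispersion, TMM scaling and genotype as the only term. P-values were adjusted by Benjamini-Hochberg over all genes tested, with 0.05 as the threshold. SE is the log2 fold change over the square root of F. The series text names different animals, so p-values measure spread between animals. DESeq2 1.42.0, limma 3.58.1 on voom and on deposited values, other scalings and filters, covariates and the omission of each library were alternatives. The covariate called the acinar level is the median log2 CPM of digestive enzyme genes. The labels give no sex, so the sex term was inferred from Y-linked transcripts and Xist. PARP2 KO replicate 1 and WT replicates 1 and 2 read as male and the other libraries as female, so sex was not balanced between the groups. Exon lengths, overlaps and shared 50-base words came from GENCODE vM21, whose coordinates matched for all 58 members. The procedure was tested on simulated counts.

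Members, classes, pairs and marker lists were chosen with earlier results of these data known. Some results are not reported here. Members named in full had an adjusted p under 0.05 and a mean of at least 1 CPM, or were paired with such a gene. For the other pathway lists, names were taken from the 4 called genes with the smallest p in each direction.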

Additional observations from a re-analysis of the deposited data

How the results depend on the processing

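No paired analysis was possible because the labels give no pairing of animals. The labels carry no replicate numbers either. Those used here follow the order of the samples, so a number shared by both groups links no animals. Of 33 called members 19 held their call under all 16 alternatives and 21 when each library was left out. Risen members numbered 16 at an adjusted p under 0.01. Fallen members numbered 4 with library totals only, 4 with the acinar level as a covariate, 3 at an adjusted p under 0.01 and 5 with a minimum absolute log2 change of 1. Risen ligands numbered 6 with the acinar level and 5 at 0.01. Fallen ligands numbered 3 with library totals, 2 with the acinar level and 1 at 0.01. Fallen signalling receptors numbered 1 with library totals and 0 at the fold minimum. Fallen homeostatic ligands numbered 0 with library totals, no count filter, sex as a term, the acinar level or the 0.01 threshold, and 2 by limma-voom. Risen inflammatory ligands numbered 2 without a count filter, with sex as a term, at 0.01 and at the fold minimum, and fallen ones 1 at 0.01.

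With each library left out in turn, 21 to 23 members rose and 4 to 11 fell. Among ligands 7 to 9 rose and 2 to 9 fell, and among signalling receptors 11 to 12 rose. Among homeostatic ligands 2 to 4 rose and 0 to 2 fell, and among inflammatory ligands 2 to 3 rose and 1 to 4 fell. The causes were not tested.

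Library totals as the only scaling made 77.6% of all calls higher, against 52.8% with TMM. Signs turned for 3 genes, none called in the main test. Ccl25 had a log2 fold change of 0.41 with library totals, 0.0112 without a filter, 0.0137 with the 1 CPM minimum, 0.0021 by limma-voom and 0.0669 with sex as a term, and between -0.1002 and 0.1082 with each library left out. With each library left out, Cx3cr1 lay between -0.1267 (without WT replicate 3) and 0.2241, and Cxcl5 between -0.0263 (without WT replicate 2) and 0.6204. Depth limits the 8 untested members most.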

Other observations

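Chemokine genes whose symbols fall outside the nomenclature used here include the platelet genes Pf4 and Ppbp. Pf4, which encodes platelet factor 4, averaged 9.58 ± 3.41 CPM in PARP2 KO and 12.7 ± 3.37 CPM in WT (SD, n = 3 each; edgeR adjusted p = 0.297). Ppbp, the precursor of a neutrophil-attracting peptide, averaged 0.519 ± 0.262 CPM in PARP2 KO and 0.231 ± 0.188 CPM in WT (SD, n = 3 each; edgeR adjusted p = 0.182). Lymphotoxin genes, whose products drive lymphoid stroma, were higher: Ltb averaged 106 ± 35.8 CPM in PARP2 KO and 19.1 ± 7.82 CPM in WT, and Lta 7.52 ± 1.33 CPM in PARP2 KO and 1.61 ± 1.26 CPM in WT (edgeR adjusted p = 0.00464 and 0.0171). Madcam1, an adhesion molecule of lymphoid venules, averaged 29.0 ± 9.86 CPM in PARP2 KO and 3.50 ± 1.82 CPM in WT (edgeR adjusted p = 0.0043). These genes were chosen after their values were seen.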
